A study of Mus musculus with 12 samples.

Results

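The 33 genes described here encode proteins of the presynaptic terminal, the side of a synapse that releases transmitter. They are a list of gene names drawn up with earlier results of these data known, and all 33 were found by symbol in both deposited tables, which list 18223 and 17800 genes, 17416 of them shared. The tables hold 12 libraries of mRNA from primary neurons of the C57BL/6 strain, taken on day 10 of treatment and enriched for mRNA with oligo-dT beads. In 3 libraries H-Ras(G12V), a mutant of the small GTPase H-Ras that is locked in its active state, was over-expressed with an adeno-associated virus (AAV), and 3 mCherry libraries of WT genotype, named for a fluorescent protein, were their control. A further 3 libraries were from neurons of WT genotype given etoposide, a topoisomerase II poison that leaves DNA breaks, against 3 WT libraries given the solvent DMSO. The series uses both treatments as models of neuronal ageing, which it abbreviates OIS (H-Ras) and SIPS (etoposide), and asks what they share. The labels used here name no promoter for the virus, no brain region and no age. Nor do they state whether the libraries in a group stem from different cultures or mice, and p-values therefore reflect just the scatter among these libraries, possibly technical.

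At a presynaptic terminal, vesicles filled with transmitter dock at the active zone, are primed by Munc13 and RIM proteins, and fuse when synaptotagmin binds the calcium that enters with an action potential. Fusion is driven by the SNARE proteins synaptobrevin, syntaxin and SNAP-25 and is held and timed by complexins. Synapsins keep a reserve of vesicles, dynamin and its partners recover membrane after release, and neurexins hold the terminal against its postsynaptic partner.

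Labels conflict for the etoposide and DMSO libraries. Their treatment tag names the opposite group to the title, the library name and the column name, and groups were taken from the titles, so every statement on etoposide below concerns the libraries with that title. Expression was deposited as FPKM, fragments scaled for transcript length and library size, and no read counts or depths were used. Libraries held 11829 to 12728 genes at 1 FPKM or more. Libraries 3 of mCherry, etoposide and DMSO stood apart from the others of their groups. Across all genes, mCherry libraries 1 and 2 had a rank correlation of 0.997 with each other, and mCherry library 3 had 0.929 and 0.925 with them. Etoposide library 3 correlated at 0.811 and 0.881 with etoposide libraries 1 and 2, and at 0.977, 0.979 and 0.931 with the DMSO libraries. Defining markers of neurons were present in each library, with Rbfox3, which encodes the nuclear protein NeuN, at 9.88 to 14.0 FPKM in H-Ras(G12V), 20.0 to 47.0 in mCherry, 9.85 to 36.5 in etoposide and 40.1 to 46.6 in DMSO libraries. Glial markers were present too, with Gfap, an astrocyte filament protein, between 101 and 2305 FPKM, while the 6 endothelial markers stayed low, with Kdr at 3.32 and 4.21 FPKM in mCherry libraries 1 and 2 and Cdh5 at 3.12 FPKM in etoposide library 1 as the highest values. Mouse Hras read 41.2 ± 9.39 FPKM in H-Ras(G12V) and 44.4 ± 1.49 FPKM in mCherry libraries (SD, n = 3 each; limma adjusted p = 0.624), but the labels do not state the species of the transgene, so this does not check the labels.

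All 33 genes passed the filter of a mean of 1 FPKM in both tables. Syp, the vesicle protein synaptophysin, had the highest mean level of the 33 in each of the 4 groups, at 277 ± 40.8 FPKM in H-Ras(G12V), 372 ± 176 FPKM in mCherry, 485 ± 236 FPKM in etoposide and 668 ± 139 FPKM in DMSO libraries (SD, n = 3 each). Next in each group came Snap25, Vamp2 and Rab3a in differing order, with group means between 184 and 429 FPKM, and then Cplx1 or Syt1. The large scaffold and priming genes lay lower, with Pclo between 4.70 and 12.3 FPKM and Unc13b between 3.70 and 8.08 FPKM as group means. Syn3 and Sv2c were the lowest pair in all 4 groups, at 1.15 to 4.02 FPKM. Summed over the 33 genes, H-Ras(G12V) libraries held 1978, 2223 and 1923 FPKM and mCherry libraries 2391, 2476 and 3942 FPKM. Etoposide libraries held 1238, 2846 and 4365 FPKM and DMSO libraries 3764, 3995 and 4164 FPKM. The H-Ras(G12V) sums all lay below the mCherry sums, while etoposide library 3 exceeded each DMSO library and etoposide libraries 1 and 2 fell short of each.

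**Figure D1:**
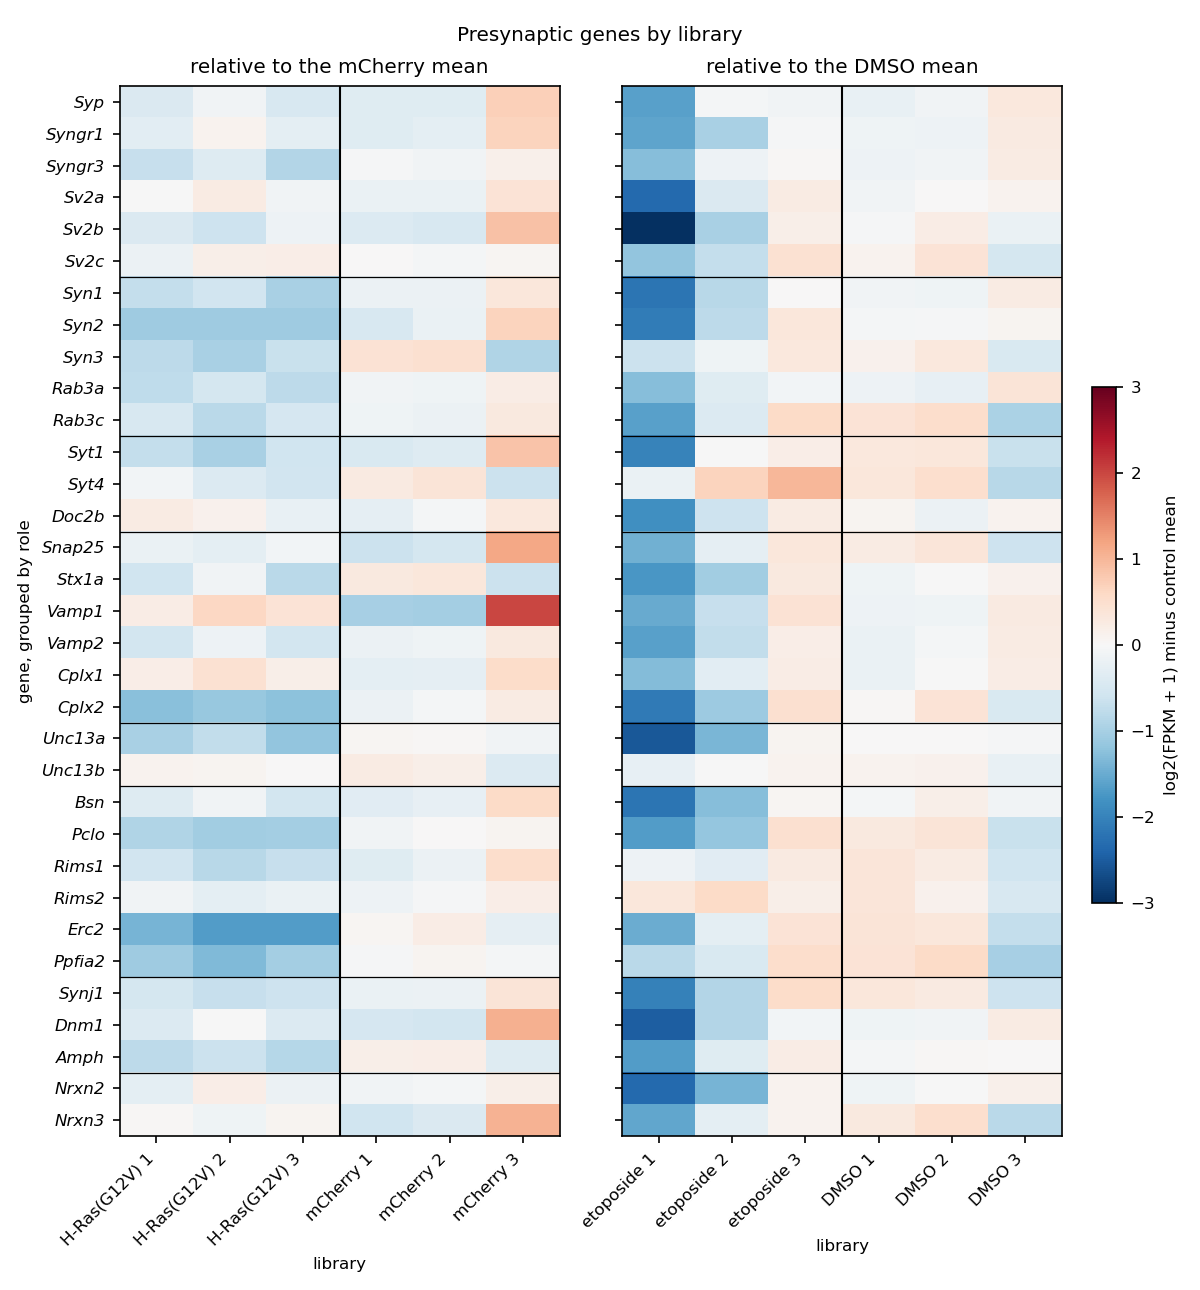
Heat map of the 33 presynaptic genes (rows, grouped by role) in the 12 libraries (columns). Colour is log2(FPKM + 1) minus the mean of the mCherry libraries (left) or of the DMSO libraries (right). H-Ras(G12V) columns resemble each other, mCherry library 3 differs from mCherry libraries 1 and 2, and etoposide library 1 is low in nearly all rows while etoposide library 3 is not.

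With H-Ras(G12V), 10 of the 33 genes fell and 0 rose (limma on log2(FPKM + 1), Benjamini-Hochberg adjusted over all 12724 genes tested, threshold 0.05). In this comparison 6.67% of all tested genes fell and 10.3% rose, 17% in all. At an unadjusted p under 0.05, 13 of the 33 were lower and 0 higher, against 34.4% of all genes in either direction and 14% lower. Those that fell were the active zone genes Erc2, Ppfia2 and Pclo, the priming factor Unc13a, the complexin Cplx2, the synapsins Syn1 and Syn2, Rab3a, the endocytic gene Amph and the vesicle gene Syngr3. Values of the H-Ras(G12V) libraries lay below all mCherry values for 14 of the 33 genes and above them for 0, where 16.6% and 23.7% of all tested genes did so. The median log2 fold change of the 33 genes was -0.42, against 0.05 over all tested genes, with 27 below 0 and 6 above it. With libraries scaled to a common sum, 12 of the 33 fell, while 1332 of all tested genes fell and 856 rose, against 849 and 1312 as deposited. That scaling moved the median of all genes to -0.07 and that of the 33 to -0.56, and Sv2a, Sv2c, Doc2b and Unc13b, just above 0 as deposited, were then not above 0. With median-of-ratios scaling 12 of the 33 fell, and 1084 of all genes fell and 1046 rose. The number of falling genes was 5, 7 and 5 without H-Ras(G12V) library 1, 2 or 3, where 1.53%, 3.77% and 2.04% of all tested genes fell. It was 6 and 5 without mCherry library 1 or 2, where 1.89% and 1.95% of all genes fell. It was 0 in a single fit of all 12 libraries, which pools the spread of all 4 groups and in which 1.03% of all genes fell. Erc2, Ppfia2, Pclo, Unc13a and Cplx2 passed in 14 of the 15 alternatives run, all but that single fit, and the other 5 passed in 7 or 8 of 15.

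Active zone scaffolds showed the lowest median of the 8 roles, at -0.84, with 3 of 6 genes falling. Erc2, the ELKS-family scaffold CAST, read 10.6, 8.41 and 8.42 FPKM in H-Ras(G12V) libraries 1 to 3, against 30.4, 34.3 and 24.0 FPKM in mCherry libraries 1 to 3. The highest H-Ras(G12V) value was under the lowest mCherry value, and the log2 fold change was -1.58 ± 0.17 (SE; adjusted p = 0.0031), the largest among the 33. Ppfia2, which encodes liprin-alpha-2, a scaffold that binds RIM and CAST, read 15.7, 13.1 and 16.4 FPKM with H-Ras(G12V), against 33.6, 36.0 and 33.01 FPKM with mCherry. Its groups were tight and separate, with a log2 fold change of -1.14 ± 0.12 (adjusted p = 0.0036). Pclo, the giant scaffold Piccolo, read 6.11, 5.45 and 5.52 FPKM against 11.4, 12.5 and 13.0 FPKM, a log2 fold change of -0.99 ± 0.12 (adjusted p = 0.0043). In these 3 genes mCherry library 3 lay close to mCherry libraries 1 and 2 or below them.

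The other scaffolds did not pass. Rims1, which encodes the vesicle-docking protein RIM1, read 10.7, 8.81 and 9.72 FPKM with H-Ras(G12V) against 12.6, 14.3 and 24.0 FPKM with mCherry, without overlap (log2 fold change -0.69 ± 0.23, adjusted p = 0.085). Bsn, the giant scaffold Bassoon and the paralogue of Pclo, averaged 14.1 ± 2.44 FPKM against 18.9 ± 7.52 FPKM (adjusted p = 0.388). Rims2, a second RIM gene, averaged 6.62 ± 0.54 FPKM against 7.77 ± 1.16 FPKM (adjusted p = 0.364). For Bsn the value in mCherry library 3, 27.5 FPKM, stood well above the 14.1 and 14.97 FPKM of mCherry libraries 1 and 2, which the H-Ras(G12V) values of 13.4, 16.8 and 12.03 FPKM overlapped.

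Among the priming genes and the complexins, Unc13a and Cplx2 passed and their paralogues did not. Unc13a, which encodes Munc13-1, the main priming factor of glutamatergic terminals, read 20.96, 25.0 and 18.1 FPKM with H-Ras(G12V), against 44.5, 43.4 and 39.6 FPKM with mCherry (log2 fold change -0.97 ± 0.14, adjusted p = 0.0084). Unc13b, which encodes Munc13-2, read 8.36, 8.17 and 7.72 FPKM against 9.26, 8.76 and 5.48 FPKM (log2 fold change 0.07 ± 0.19, adjusted p = 0.833). The first pair of groups did not overlap and the second did. Cplx2, one of the complexins that clamp and time fusion, read 61.8, 67.2 and 62.6 FPKM with H-Ras(G12V), against 130.4, 142 and 177 FPKM with mCherry (log2 fold change -1.20 ± 0.14, adjusted p = 0.0043). Its paralogue Cplx1 read 157, 186 and 153 FPKM against 110.45, 113 and 199.9 FPKM (log2 fold change 0.28 ± 0.24, adjusted p = 0.453).

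Ratios within a library carry no dependence on its overall scale, but a shift that follows transcript length does not cancel in them. The longest protein-coding transcripts of Cplx2 and Cplx1, for example, are 4.93 and 2.19 kilobases long. The part of length in the ratios was not tested. The Cplx2 to Cplx1 ratio was 0.393, 0.362 and 0.410 in H-Ras(G12V) libraries, against 1.18, 1.25 and 0.883 in mCherry libraries, so that Cplx2 was the lesser complexin in all 3 H-Ras(G12V) libraries. The Unc13a to Unc13b ratio was 2.51, 3.06 and 2.35 against 4.80, 4.95 and 7.22. Rims1 to Rims2 gave 1.49, 1.45 and 1.47 against 1.85, 1.92 and 2.66. In these 3 of the 6 pairs examined the H-Ras(G12V) ratios all lay below the mCherry ratios, and an exact permutation test of 3 against 3 libraries cannot go below p = 0.1, so none was tested. Cplx2, Unc13a and Rims1 by themselves also lay below all mCherry values, where 16.6% of all tested genes did. The ratios are not independent of those values, and the share of other gene pairs that separate was not computed. For Vamp2 to Vamp1, Sv2b to Sv2a and Syn2 to Syn1 the groups overlapped. The Vamp2 to Vamp1 ratio separated mCherry libraries 1 and 2, at 60.9 and 65.4, from mCherry library 3, at 8.61, with H-Ras(G12V) libraries between at 17.9, 17.1 and 15.4. In the other model the Cplx2 to Cplx1 ratio was 0.474, 0.496 and 1.01 in etoposide libraries and 1.01, 1.13 and 0.532 in DMSO libraries, and all 6 pairs overlapped there.

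**Figure D2:**
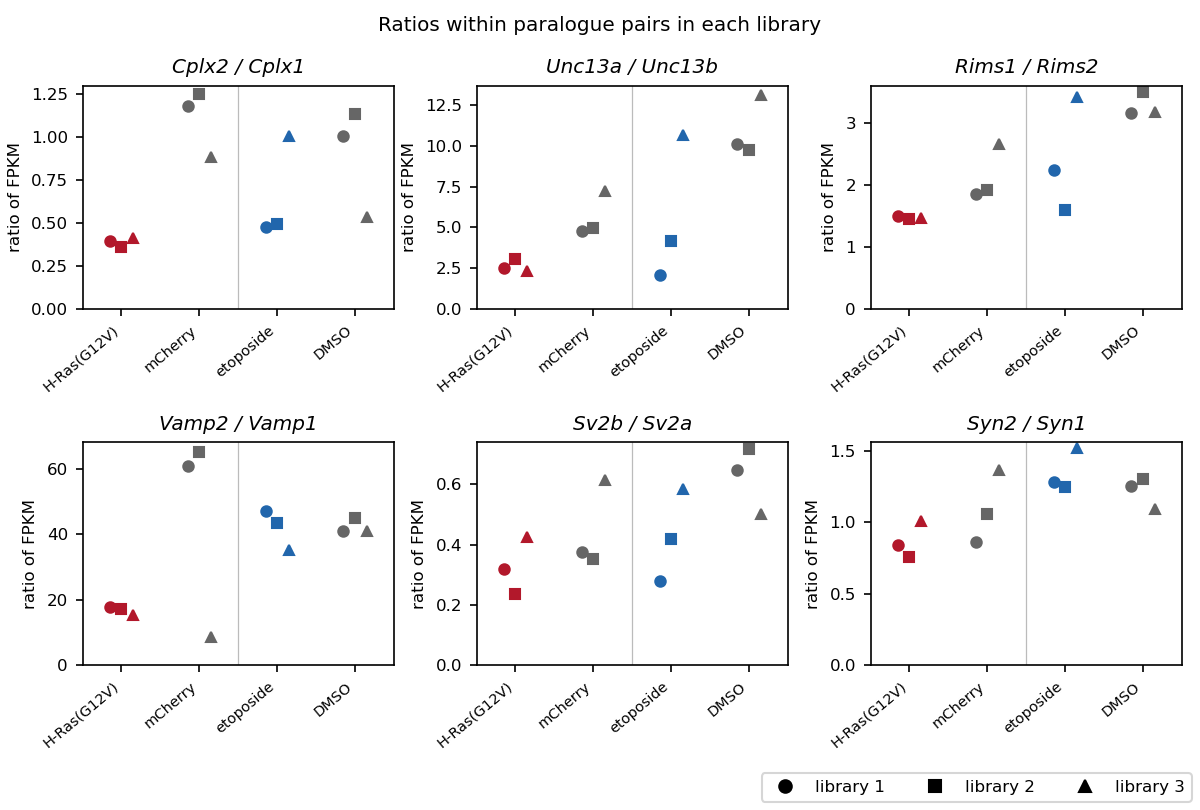
Ratio of FPKM within 6 pairs of related presynaptic genes in each library (points, with shape giving the library number), for H-Ras(G12V), mCherry, etoposide and DMSO libraries. In the upper row the H-Ras(G12V) points lie below all mCherry points, and for Vamp2 to Vamp1 mCherry library 3 lies at 8.61, far from 60.9 and 65.4.

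Promoters are shown for the Unc13 and Cplx pairs and for Syn1, a synapsin gene whose promoter is a classical neuron-specific element. They are RefSeq windows on GRCm38.p6, from 250 bases before a start site to 50 after it, on the gene's strand and in 5′ to 3′ order. Capitals mark every match, on either strand, to the left and right parts of RE1, the element bound by the repressor REST (left part TTCAGCACC, right part GGACAGCGC), to a cyclic AMP response element (CRE, TGACGTCA) and to a GC box (GGGGCGGGG).
Unc13a (chr8:71671708-71672007, minus strand): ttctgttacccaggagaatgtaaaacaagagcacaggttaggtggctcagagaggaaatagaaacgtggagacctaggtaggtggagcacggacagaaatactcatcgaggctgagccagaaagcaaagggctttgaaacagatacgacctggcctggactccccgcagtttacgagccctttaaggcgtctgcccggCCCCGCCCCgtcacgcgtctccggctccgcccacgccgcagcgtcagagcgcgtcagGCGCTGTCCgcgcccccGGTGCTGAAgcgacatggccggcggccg
Unc13b (chr4:43058703-43059002, plus strand): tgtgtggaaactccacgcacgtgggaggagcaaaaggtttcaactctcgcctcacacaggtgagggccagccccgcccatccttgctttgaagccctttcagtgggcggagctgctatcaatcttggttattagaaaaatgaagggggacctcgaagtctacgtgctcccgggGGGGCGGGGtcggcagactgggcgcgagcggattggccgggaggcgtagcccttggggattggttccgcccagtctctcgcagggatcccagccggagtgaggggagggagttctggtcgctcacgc
Syn1 (chrX:20920869-20921168, minus strand): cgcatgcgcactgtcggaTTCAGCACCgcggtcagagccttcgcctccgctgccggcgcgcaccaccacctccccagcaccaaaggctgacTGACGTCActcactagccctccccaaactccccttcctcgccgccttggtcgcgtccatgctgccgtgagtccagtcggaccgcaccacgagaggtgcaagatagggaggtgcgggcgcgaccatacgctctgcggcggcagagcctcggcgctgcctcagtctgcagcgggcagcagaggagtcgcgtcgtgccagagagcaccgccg
Cplx2 (chr13:54302306-54302605, plus strand): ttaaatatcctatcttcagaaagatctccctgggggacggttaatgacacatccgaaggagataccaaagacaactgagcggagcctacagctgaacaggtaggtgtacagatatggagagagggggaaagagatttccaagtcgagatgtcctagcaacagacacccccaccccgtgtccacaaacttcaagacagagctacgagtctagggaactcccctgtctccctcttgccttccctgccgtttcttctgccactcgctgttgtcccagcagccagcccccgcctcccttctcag
Cplx1 (chr5:108549978-108550277, minus strand): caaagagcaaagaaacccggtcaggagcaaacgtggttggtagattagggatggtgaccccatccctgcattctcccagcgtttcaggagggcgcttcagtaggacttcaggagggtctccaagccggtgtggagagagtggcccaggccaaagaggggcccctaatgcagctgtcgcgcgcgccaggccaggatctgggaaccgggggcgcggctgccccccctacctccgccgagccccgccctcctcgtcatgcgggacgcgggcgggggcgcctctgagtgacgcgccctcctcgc

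The Unc13a window holds both RE1 parts on the opposite strand, with 8 letters between them and both downstream of the start site, and also a GC box, while the Unc13b window holds a GC box alone. Of 32851 promoters in the table, 0.371% hold the left part, 0.405% the right part and 0.0152% both. Syn1 holds the left part and a CRE, which 1.79% of all promoters hold. The last 25 letters of the Cplx2 window are in no GENCODE M21 transcript of that gene, while the last 25 letters of the other 4 windows are in a transcript of their gene. Neither Cplx window holds any of these letters, and their GC content is 53.3% for Cplx2 and 67% for Cplx1. Promoters were found for 25 of the 33 genes, with 34 windows in all. Of these 34 windows, 11 hold a GC box, which is in 11.4% of all promoter windows, 2 hold the left RE1 part (Unc13a and Syn1) and 1 holds the CRE (Syn1). A match is a description of letters and not evidence of binding.

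Synapsins and RAB3 genes all had log2 fold changes below 0 with H-Ras(G12V), and 3 of the 5 fell. Syn1, a phosphoprotein that tethers reserve vesicles, read 65.0, 72.3 and 54.3 FPKM with H-Ras(G12V), against 95.9, 96.0 and 136 FPKM with mCherry (log2 fold change -0.76 ± 0.18, adjusted p = 0.034). Syn2 read 54.65, 54.55 and 54.56 FPKM against 82.6, 102 and 186 FPKM (-1.07 ± 0.28, adjusted p = 0.0427), so the H-Ras(G12V) libraries hardly differed while mCherry library 3 read well above mCherry libraries 1 and 2. Rab3a, the main vesicle-bound RAB3 GTPase, read 176, 205 and 172 FPKM against 277, 271 and 348 FPKM (-0.69 ± 0.15, adjusted p = 0.0237). Rab3c, a second RAB3 gene, read 33.9, 26.6 and 33.4 FPKM against 43.3, 42.4 and 58.8 FPKM, without overlap and just outside the threshold (-0.60 ± 0.17, adjusted p = 0.0537). Syn3, the scarcest synapsin, read 1.68, 1.34 and 1.90 FPKM against 5.17, 5.44 and 1.45 FPKM. Here mCherry library 3 sat among the H-Ras(G12V) values, and the adjusted p was 0.172.

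Among endocytic genes, Amph, the membrane-curving protein amphiphysin, read 50.2, 55.3 and 47.8 FPKM with H-Ras(G12V), against 98.1, 101 and 67.0 FPKM with mCherry (log2 fold change -0.76 ± 0.18, adjusted p = 0.0313). Synj1, the phosphatase synaptojanin 1 that strips clathrin from recovered vesicles, read 30.4, 27.0 and 28.4 FPKM against 38.1, 38.9 and 57.6 FPKM, without overlap (-0.61 ± 0.18, adjusted p = 0.0574). Dnm1, the neuronal dynamin that cuts vesicles free, averaged 58.8 ± 9.80 FPKM against 82.1 ± 57.7 FPKM (adjusted p = 0.679), and mCherry library 3 stood at 149 and mCherry libraries 1 and 2 at 49.4 and 48.1 FPKM. Both neurexin genes overlapped between groups, with Nrxn2 at 55.5 ± 10.3 against 58.8 ± 6.31 FPKM (adjusted p = 0.719) and Nrxn3 at 10.4 ± 0.852 against 12.2 ± 8.97 FPKM (adjusted p = 0.993).

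Of the 6 vesicle membrane genes 1 fell. Syngr3, a synaptogyrin, read 63.9, 79.4 and 56.0 FPKM with H-Ras(G12V), against 101, 96.0 and 114 FPKM with mCherry (log2 fold change -0.65 ± 0.16, adjusted p = 0.034). Syp, Syngr1 and Sv2b had log2 fold changes of -0.34, -0.17 and -0.40, and Sv2a and Sv2c, of the SV2 family of vesicle glycoproteins, had 0.04 and 0.07, with adjusted p between 0.469 and 0.909 for these 5. Of the core SNARE genes none passed. Snap25 averaged 221 ± 16.1 FPKM against 300.1 ± 229 FPKM (adjusted p = 0.802), Vamp2, the main synaptobrevin, 195 ± 31.7 against 261 ± 49.2 FPKM (0.151), and Stx1a, a plasma membrane syntaxin, 49.0 ± 13.1 against 71.9 ± 24.6 FPKM (0.282). The calcium sensors did not pass either. Syt1, the fast calcium sensor of release, read 83.6, 69.5 and 90.0 FPKM against 99.1, 105 and 248 FPKM, without overlap (adjusted p = 0.169). Syt4 averaged 71.8 ± 12.9 against 95.6 ± 33.04 FPKM (adjusted p = 0.416), and Doc2b, a high-affinity calcium sensor, 16.4 ± 2.86 against 15.8 ± 3.48 FPKM (adjusted p = 0.868).

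**Figure D3:**
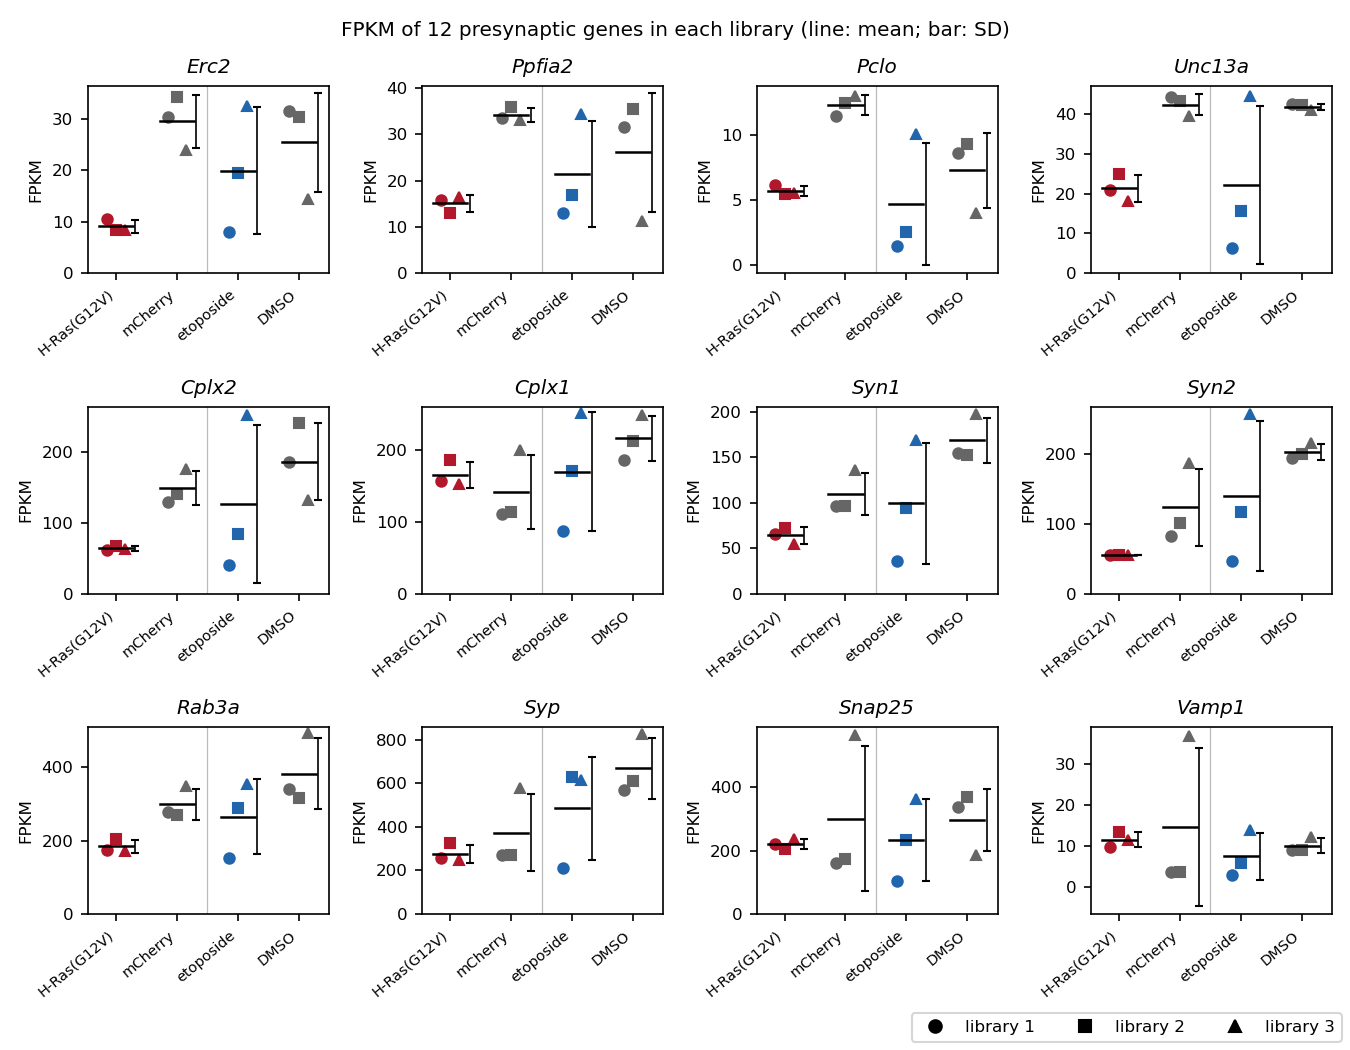
FPKM of 12 presynaptic genes in every library of the H-Ras(G12V), mCherry, etoposide and DMSO groups. Points are libraries (shape gives the library number), lines are group means and bars are SD (n = 3). Erc2, Ppfia2, Pclo, Unc13a and Cplx2 separate H-Ras(G12V) from mCherry, while Snap25 and Vamp1 show mCherry library 3 far above mCherry libraries 1 and 2.

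Many of the wide mCherry spreads came from mCherry library 3. Relative to the other 2 mCherry libraries it was higher in 25 of the 33 genes and lower in 8, from -1.36 (Syn3) to 3.02 (Vamp1) in log2. Vamp1, the second synaptobrevin gene, read 9.91, 13.6 and 11.5 FPKM with H-Ras(G12V), against 3.75, 3.64 and 37.0 FPKM in mCherry libraries 1, 2 and 3. Snap25 read 220, 205 and 238 FPKM against 161, 175 and 564 FPKM. In both genes the H-Ras(G12V) libraries sat between mCherry libraries 1 and 2 and mCherry library 3, with log2 fold changes of 0.41 for Vamp1 and -0.19 for Snap25 over all 6 libraries.

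Without mCherry library 3, an alternative in which the 2 controls left are the closest pair of the table, 16 of the 33 genes fell and 4 rose, where 19.5% of all tested genes fell and 25.4% rose, 44.9% in all. The groups did not overlap for 18 lower and 6 higher genes, against 31% and 38.1% of all genes. All 10 genes named above were among those that fell, joined by Syn3, Rab3c, Syt4, Stx1a, Rims1 and Synj1. Those that rose were Vamp1 (log2 fold change 1.42 ± 0.14, adjusted p = 0.000272), Cplx1 (0.55 ± 0.11, 0.00639), Nrxn3 (0.51 ± 0.12, 0.0106) and Snap25 (0.39 ± 0.10, 0.0189). Over the 15 alternatives adjusted p reached 0.963 for Vamp1, 0.795 for Cplx1, 1 for Nrxn3 and 0.895 for Snap25, and Nrxn3 and Snap25 had values below 0 with all libraries. The median of the 33 genes stayed below 0 in each alternative, between -0.34 and -0.56.

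**Figure D4:**
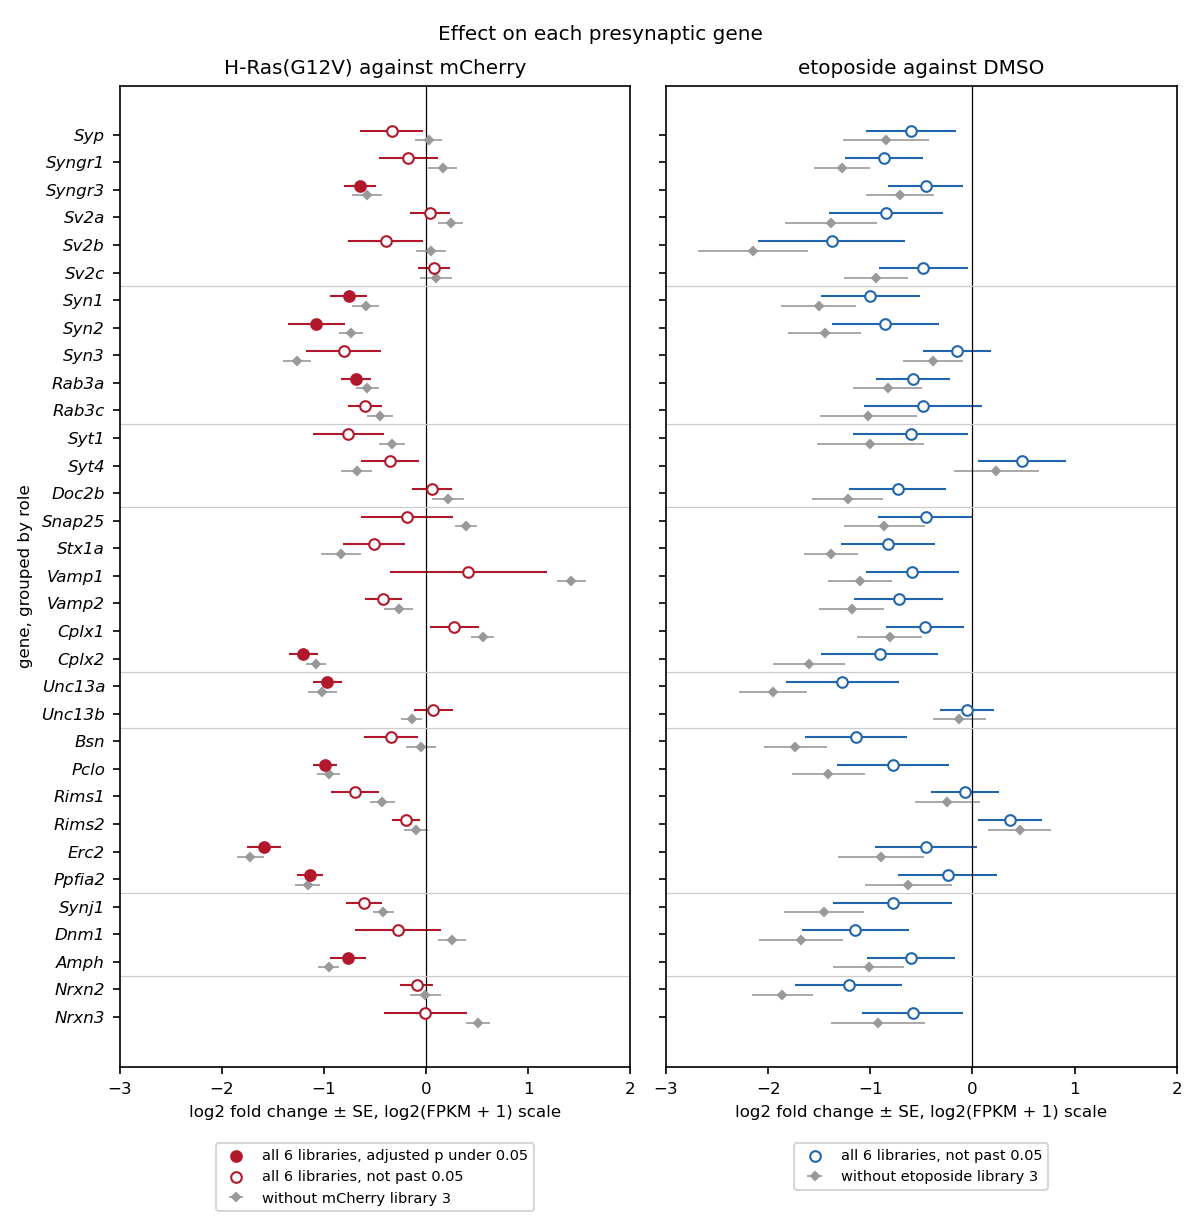
Log2 fold change ± SE of each of the 33 presynaptic genes, grouped by role, for H-Ras(G12V) against mCherry (left) and etoposide against DMSO (right), on the log2(FPKM + 1) scale. Circles use all 6 libraries of a table, filled where adjusted p is under 0.05 (10 genes on the left, 0 on the right), and grey diamonds leave out mCherry library 3 or etoposide library 3.

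Markers of other cells and of neurons moved in the same comparison. For all counts here, 6.67% of all tested genes fell and 10.3% rose in this comparison, and the lists are short. Of 15 neuronal markers 4 fell and 1 rose, the neurofilament gene Nefm. Neuronal marker sums were 2280, 2462 and 1908 FPKM in H-Ras(G12V) libraries, against 3832, 3984 and 2014 FPKM in mCherry libraries. Of 9 astrocyte markers 2 rose (sums 3716, 3313 and 2576 against 1190, 1197 and 3147 FPKM), of 8 tested oligodendrocyte lineage markers 5 rose (942, 841 and 1030 against 270, 206 and 708 FPKM) and of 6 neural progenitor markers 3 rose (1591, 2029.5 and 1569 against 679, 635 and 558 FPKM). Nes, a progenitor filament protein, read 81.2, 90.2 and 100.1 FPKM against 28.1, 28.2 and 29.7 FPKM. Vim made up most of the progenitor sums, at 1394, 1837 and 1353 against 588, 552 and 458 FPKM. Of 8 fibroblast and mural markers 7 fell (38.2, 36.7 and 40.01 against 229, 176 and 155 FPKM). Of the 3 tested microglial markers 1 rose, the lysosomal gene Cd68, at 13.1, 26.4 and 9.67 against 3.87, 5.94 and 2.24 FPKM. The 8 microglial markers summed to 22.1, 42.8 and 13.9 against 13.03, 16.6 and 4.86 FPKM, with Aif1, Cx3cr1, P2ry12 and Csf1r under 1 FPKM in these 6 libraries. Of the 6 endothelial markers 1 was tested and did not pass, and their sums were 1.52 to 5.14 FPKM. The part of these shifts in the values of the presynaptic genes was not tested, and in bulk samples fewer neurons and less of an mRNA per neuron cannot be told apart.

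Set against neuronal markers, the presynaptic sum was not lower in all H-Ras(G12V) libraries. The sum of the 33 genes over the sum of the 15 neuronal markers was 0.867, 0.903 and 1.01 in H-Ras(G12V) libraries, against 0.624, 0.621 and 1.96 in mCherry libraries. Against Rbfox3 alone it was 200.2, 158 and 175 in H-Ras(G12V) libraries and 120, 108 and 83.9 in mCherry libraries, higher in each H-Ras(G12V) library. Abundant genes weigh most in the presynaptic sum, such as Syp, Snap25, Vamp2, Rab3a and Cplx1, of which Rab3a alone was called. Erc2, Ppfia2, Pclo and Unc13a, all called lower, averaged 5.69 to 21.4 FPKM with H-Ras(G12V) and add little to that sum. Rbfox3 was itself called lower with H-Ras(G12V) (log2 fold change -1.21, limma adjusted p = 0.0421), and Nefm higher (2.10, 0.0284). Of the 15 markers 9 had log2 fold changes below 0 and 6 above, so a ratio to a single marker depends on the marker chosen. In mCherry library 3 Tubb3, a neuronal tubulin, read 110 FPKM, against 704 and 737 FPKM in mCherry libraries 1 and 2, while Rbfox3 read 47.0 against 20.0 and 23.0 FPKM, so neuronal markers themselves moved both ways in that library.

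**Figure D5:**
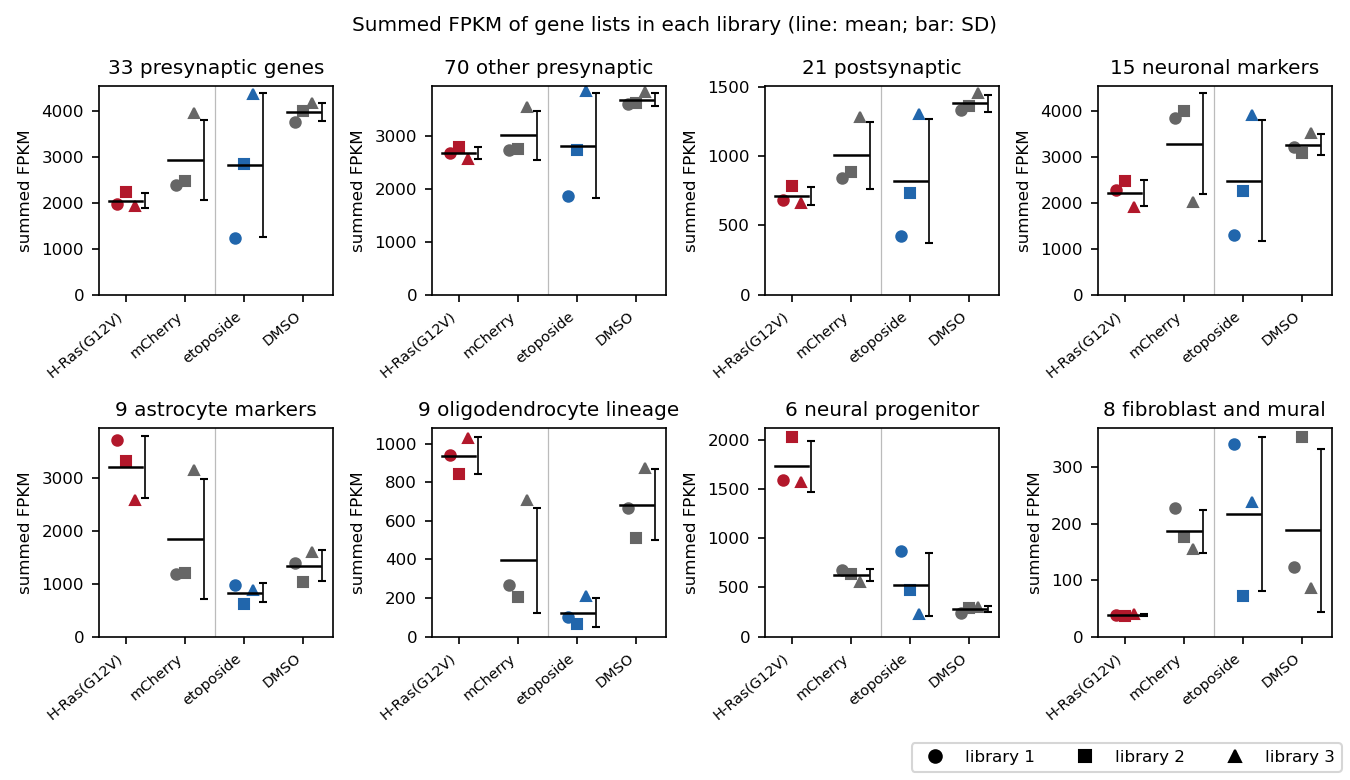
Summed FPKM of gene lists in each library of the H-Ras(G12V), mCherry, etoposide and DMSO groups. Points are libraries (shape gives the library number), lines are means and bars are SD (n = 3). H-Ras(G12V) sums are low for the 33 presynaptic genes and high for the 6 neural progenitor markers, mostly through Vim, and etoposide libraries spread widely in all neuronal lists.

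Etoposide gave no called change in the 33 genes. With all 6 libraries 0 of 33 passed in limma, where 56 of 12371 tested genes (0.453%) did, and 3 had an unadjusted p under 0.05 (Unc13a, Bsn and Nrxn2, all lower), where 13.9% of all genes did and 6.52% were lower. No other tool was run. Log2 fold changes were below 0 for 31 of the 33, with a median of -0.60 against 0.09 over all genes, and the groups overlapped for all 33, where 8.17% of all genes had etoposide values below all DMSO values and 7.64% above. Syt4 and Rims2 were the exceptions, at 0.49 ± 0.43 and 0.37 ± 0.31 (adjusted p = 0.55 and 0.535).

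The spread among etoposide libraries was wide and shared by nearly all members. For 30 of the 33 genes etoposide library 1 read lowest, library 2 between and library 3 highest, the exceptions being Syp, Rims1 and Rims2. Etoposide library 1 lay below the 3 DMSO libraries in 29 genes and within their range in 4, and etoposide library 2 lay below in 21, within in 10 and above in 2. Etoposide library 3 lay below in 0, within in 17 and above in 16. Medians over the 33 genes, relative to the DMSO mean in log2, were -1.63, -0.46 and 0.23 in etoposide libraries 1 to 3, against 0.02, 0.13 and -0.10 in DMSO libraries 1 to 3. The shares of all genes with the library order above, or with these positions against DMSO, were not computed. Relative to the other 2 etoposide libraries in log2, medians of the 33 genes were -1.47, 0.11 and 1.38 in etoposide libraries 1 to 3. Over all genes these medians were 0.02, 0.15 and -0.16, with SDs across genes of 0.73, 0.46 and 0.91.

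Single genes show the same pattern. Unc13a read 6.36, 15.7 and 44.6 FPKM in etoposide libraries, against 42.5, 42.3 and 41.1 FPKM in DMSO libraries, with a log2 fold change of -1.27 ± 0.56 (adjusted p = 0.357). Nrxn2, a neurexin, read 17.8, 34.9 and 99.9 FPKM against 85.4, 92.4 and 103 FPKM (-1.21 ± 0.52, adjusted p = 0.357), and Bsn 4.30, 9 and 24.2 FPKM against 22.1, 26.2 and 21.6 FPKM (-1.13 ± 0.50, adjusted p = 0.357). In each of these the first 2 etoposide libraries were below the DMSO range and the third was near it. Sv2b, an SV2 vesicle glycoprotein, had the lowest log2 fold change of the 33, -1.38 ± 0.72, with 5.74, 32.98 and 74.3 FPKM against 65.0, 77.1 and 57.8 FPKM (adjusted p = 0.385). Rims1 was steadier, at 16.8, 14.4 and 22.7 FPKM against 24.1, 22.1 and 11.99 FPKM (adjusted p = 0.921). Rims2 read 7.49, 9.05 and 6.63 FPKM against 7.62, 6.34 and 3.77 FPKM, and Syt4 46.8, 85.8 and 108 FPKM against 68.1, 76.7 and 29.5 FPKM, both with the lowest value in DMSO library 3.

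These counts depended on etoposide library 3. Without it 18 of the 33 genes fell and 0 rose, where 13.4% of all tested genes fell and 18.4% rose, 31.8% in all, and the median was -1.02. Values of etoposide libraries 1 and 2 lay below all DMSO values for 21 of the 33 genes and above them for 0, against 23.5% and 36.1% of all tested genes. All 3 endocytic genes fell (Dnm1 -1.68, Synj1 -1.45 and Amph -1.01 in log2), as did 4 of 6 SNARE and complexin genes (Cplx2 -1.60, Stx1a -1.38, Vamp2 -1.18 and Vamp1 -1.10) and 4 of 6 vesicle membrane genes (Sv2b -2.15, Sv2a -1.39, Syngr1 -1.28 and Sv2c -0.95). Unc13a (-1.95), Bsn (-1.73), Pclo (-1.41), Syn1 (-1.50), Syn2 (-1.45), Doc2b (-1.22) and Nrxn2 (-1.86) also fell. Adjusted p was 0.00201 for Nrxn2, 0.00275 for Unc13a and 0.00342 for Bsn in that fit, and up to 0.807 for each over the 15 alternatives. With DMSO library 3 left out as well, an alternative added after the data were seen, 11 fell and 0 rose, where 14.1% of all tested genes fell and 22.2% rose, 36.3% in all. Without etoposide library 1, 0 of the 33 passed and the median was -0.13.

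In the etoposide libraries neuronal marker sums had the same order as the presynaptic sums, and the sums of the astrocyte, oligodendrocyte lineage and microglial lists did not. Neuronal marker sums were 1292, 2246 and 3895 FPKM in etoposide libraries 1 to 3, against 3201, 3080 and 3504 FPKM in DMSO libraries 1 to 3. The ratio of the 2 sums was 0.958, 1.27 and 1.12 in etoposide libraries, against 1.18, 1.30 and 1.19 in DMSO libraries, with overlap. Of 15 neuronal markers 0 passed, where 0.453% of all tested genes did, all of them lower. Of 7 tested oligodendrocyte lineage markers 3 fell (sums 100.45, 64.8 and 209 against 665, 509 and 875 FPKM), also in etoposide library 3. Sox10 was under 1 FPKM in every etoposide library, against 25.1, 18.8 and 25.35 FPKM in DMSO libraries. Mog and Mag were also under 1 FPKM in every etoposide library. They were low in DMSO libraries too, at 0.35, 0.31 and 0.18 FPKM for Mog and 0.27, 1.92 and 0.27 FPKM for Mag. Of 9 astrocyte markers 0 passed (sums 978, 622 and 885 against 1391, 1031 and 1599 FPKM). Within these sums Gja1 alone made up 378, 287 and 60.8 against 76.8, 59.0 and 59.8 FPKM. The astrocyte markers had log2 fold changes below 0 in 7 cases and above 0 in 2, Gja1 among the latter. Of 6 progenitor markers 1 fell, Hes5, at 1.43, 0.69 and 1.89 against 16.35, 8.97 and 21.5 FPKM. Progenitor sums were 870.4, 473 and 234 against 242, 288 and 300.2 FPKM. Of these sums Vim alone made up 752, 382 and 186 against 149, 210 and 214 FPKM. Microglial sums were 115, 81.8 and 12.2 against 8.65, 37.4 and 5.52 FPKM, of which Cd68 alone made up 97.4, 77.5 and 3.78 against 3.92, 11.5 and 3.22 FPKM (0 of 4 tested markers passed). C1qa, a complement gene of microglia, read 7.06, 1.18 and 2.37 against 1.42, 11.4 and 0.32 FPKM. Of 8 fibroblast and mural markers 0 passed, and their sums were 341, 71.7 and 239 against 124, 354 and 86.9 FPKM. Their part in the presynaptic values was not tested.

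DMSO library 3 differed from DMSO libraries 1 and 2 in a way that followed transcript length. Over the 33 genes its log2 distance from the other 2 had a rank correlation of -0.61 with the length of the longest protein-coding transcript (GENCODE M21), and over 12395 genes of -0.53. These are correlations across genes of 1 library and genes are not independent. Of the 11 shortest transcripts 10 were higher in DMSO library 3, such as Rab3a at 492 FPKM, against 339 and 315 FPKM in DMSO libraries 1 and 2. Of the 11 longest 10 were lower, such as Pclo at 3.98 against 8.6 and 9.27 FPKM and Ppfia2 at 11.4 against 31.6 and 35.4 FPKM. Over the 33 genes the rank correlation of length with the group difference was -0.11 for etoposide minus DMSO and -0.10 for H-Ras(G12V) minus mCherry, and over all 12395 genes it was -0.08 and -0.23 for the same differences.

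The effects of both treatments on these genes were compared directly through their difference over the 12 libraries, the log2 fold change with H-Ras(G12V) minus that with etoposide. It passed for 0 of the 33 genes in limma, with 0 at an unadjusted p under 0.05, where 3.76% of 12646 tested genes passed (3.4% above 0 and 0.356% below) and 18.3% had an unadjusted p under 0.05 (7.58% below 0). The difference ranged from -1.13 ± 0.59 for Erc2 (adjusted p = 0.327) to 1.12 ± 0.62 for Nrxn2 (adjusted p = 0.355), with a median of 0.24 and standard errors of 0.31 to 0.96. Erc2 and Ppfia2 were thus called lower with H-Ras(G12V) and not with etoposide, yet a difference between the treatments was not shown. Without etoposide library 3, Nrxn2 (1.77), Bsn (1.39) and Doc2b (1.28) had a difference above 0 that passed, where 10.6% of all tested genes did and 22.6% passed in either direction. With libraries 3 of mCherry, etoposide and DMSO all left out, 13 genes had a difference above 0 that passed, where 17.4% of all tested genes did and 38.8% passed in either direction. The median turned to -0.33 without etoposide library 1.

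Of 70 others of the same roles 65 were tested with H-Ras(G12V), of which 12 fell and 2 rose, where 6.67% of all tested genes fell and 10.3% rose, with a median log2 fold change of -0.11. Cadps2, a factor for dense-core vesicle priming, read 1.72, 1.57 and 2.24 FPKM with H-Ras(G12V), against 9.48, 10.9 and 10.2 FPKM with mCherry (log2 fold change -1.98 ± 0.14, adjusted p = 0.00126), and passed in all 15 alternatives. Ptprd, a presynaptic adhesion receptor of the LAR family, fell by 1.22 and Stxbp5, the syntaxin-binding protein tomosyn, by 0.77 on the log2 scale (adjusted p = 0.0059 and 0.0081). The 2 that rose were Syt6, a synaptotagmin, at 3.83 ± 0.884 against 1.04 ± 0.474 FPKM (adjusted p = 0.0135), and Syngr2, a synaptogyrin of many tissues and relative of the falling Syngr3, at 13.9 ± 2.77 against 8.10 ± 0.635 FPKM (adjusted p = 0.0296). Of 21 postsynaptic scaffold and adhesion genes 4 fell and 0 rose. By smallest p the first were Dlg2, the scaffold PSD-93 (-1.20), Camk2b, a kinase subunit (-0.88), and Dlg3, the scaffold SAP102 (-0.59), and the other was Nlgn1, a postsynaptic neurexin partner (-0.69). With etoposide 0 of 66 other presynaptic and 0 of 21 postsynaptic genes passed, with medians of -0.35 and -0.75. Without etoposide library 3, 22 of 65 other presynaptic genes fell and 4 rose, with a median of -0.60. In that fit 15 of 21 postsynaptic genes fell and 0 rose (median -1.21), and 5 of 15 neuronal markers fell and 0 rose. Of all tested genes 13.4% fell and 18.4% rose there. The fall without that library was thus not limited to the 33 genes. Whether the 33 genes differ from these lists was not tested.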

How the data were processed

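The 33 members and all gene lists were chosen with earlier results of these data known. Values are FPKM per gene and library as deposited by the authors, in 2 tables treated as normalised separately. HISAT, Bowtie2, RSEM and mm9 are named, without versions or roles, in the submitters' processing notes. Depth was not estimated here, and FPKM gives no counting error. Groups follow the titles, and 0 value columns were left unmapped. A table's genes were kept where their average reached 1 FPKM across its 6 libraries (12 for the difference), and log2(FPKM + 1) was fitted with lmFit and eBayes (trend on) of limma 3.58.1 in R 4.3.3, two-sided, with Benjamini-Hochberg adjustment over all tested genes and a threshold of 0.05. Fold changes on this scale understate low genes. The step was tested on simulated data with independent noise for each gene, which do not mimic shifts shared across the genes of a library. Named genes were the 33 members, up to 3 called genes per direction of the other synaptic lists by smallest p, and fixed markers. Transcripts come from GENCODE M21 and promoters from RefSeq on GRCm38.p6. Alternatives were the pseudocount, the filter, 2 scalings, each library left out, a replicate block, a single fit of 12 libraries, and mCherry libraries 1 and 2 averaged.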

Additional observations from a re-analysis of the deposited data

How the results depend on the processing

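For H-Ras(G12V) against mCherry, the number of called genes among the 33 was 9 to 12 with other pseudocounts, filters and scalings. All of them fell, where 4.33% to 10.5% of all tested genes fell. It was 0 in the single fit of 12 libraries, 5 with mCherry libraries 1 and 2 averaged (1.94% of all genes fell), and 5 to 20 when 1 library was left out, where the share of all genes called reached 44.9%. Snap25 had log2 fold changes of -0.51 to 0.39 and Nrxn3 of -0.30 to 0.51 when 1 library was left out, both highest without mCherry library 3. Over the 33 genes and all alternatives, a call was lost 41 times and one in the same direction gained 12 times. For etoposide the number was 0 to 18 with 1 library left out. It was 18 without etoposide library 3, where 13.4% of all genes fell, and 11 without etoposide and DMSO libraries 3, where 14.1% fell. For the difference it was 0 to 3 with 1 library left out, where the median ranged from -0.33 to 0.67. The 3 were called without etoposide library 3, where 10.6% of all genes were called above 0. Without libraries 3 of mCherry, etoposide and DMSO 13 were called, all above 0. In that last setting, added after the data were seen, 17.4% of all genes were called above 0. There the difference for Pclo was 0.79 (limma adjusted p = 0.0329), against -0.21 with all libraries. The cause of these shifts was not tested. Whether library numbers pair the samples is not stated in the labels used here. Deviations of same-numbered libraries from their group means correlated at -0.04, 0.03 and 0.12 in the first table and at -0.26, -0.17 and -0.15 in the second. These values cannot decide it, since deviations within a group depend on one another and on libraries that stand apart. With the replicate number as a block, 7 genes were called with H-Ras(G12V), all falling (5.27% of all genes fell), 0 with etoposide and 0 for the difference. FPKM leaves the counting error unknown.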
